A study of Homo sapiens with 12 samples.

Results

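The ATF4 amino acid response genes described here are ATF4 and 9 of its known targets, picked by name: DDIT3, TRIB3, DDIT4, SESN2, ASNS, PSAT1, PHGDH, CHAC1 and INHBE. These 10 genes were found by their Ensembl identifiers among the 61552 in the files, and all 10 passed the filter on low counts that kept 18646 genes for testing. They were measured by poly-A RNA sequencing in RD cells, an established human line from an embryonal rhabdomyosarcoma, labelled ERMS and FN-RMS (the fusion-negative form of this muscle-like tumour). The control cells received scrambled siRNA (3 libraries) and the other cells an siRNA specific for EHMT1 (3 libraries). Both groups were transfected with Lipofectamine RNAiMAX and collected at 48 h, so the controls share the transfection. EHMT1 (GLP) methylates lysine 9 of histone H3, and the comparison asks how these transcripts change when EHMT1 RNA is lowered by siRNA. Nothing in the labels ties the libraries to separate cultures, and p-values therefore cover only the scatter among these libraries, which may be of technical origin. The 6 libraries of a SOX8 siRNA experiment in the same series were not analysed here.

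ATF4 is a basic leucine zipper transcription factor that cells make when amino acids run short or when unfolded protein builds up in the endoplasmic reticulum. Kinases phosphorylate the initiation factor eIF2, general translation slows, and the ATF4 message, held back by upstream reading frames in unstressed cells, is translated more. ATF4 then binds composite C/EBP-ATF elements and turns on genes for amino acid synthesis and uptake, for feedback control and, under long stress, for cell death. Much of the control of ATF4 lies in translation, which RNA levels do not measure.

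Of these elements, the core TGATGNAA was searched on both strands, because ATF4 and a C/EBP partner bind it. The search used the RefSeq promoter windows (GRCh38.p14) from 250 bases before to 50 after each start, which were found for 9 of the 10 genes, in 14 windows. The core occurred in 1 of the windows of ASNS and in the window of CHAC1. Of all 35116 such windows, 3.62% held it. The 30 bases around each match are shown 5′ to 3′ along the strand of the gene, with the match in capitals.
ASNS, chr7:97872458-97872487, minus strand: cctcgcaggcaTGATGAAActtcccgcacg
CHAC1, chr15:40953251-40953280, plus strand: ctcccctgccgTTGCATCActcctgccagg
The ASNS match began 68 bases before the start (position -68) and read along the gene. The CHAC1 match began at position -209 and lay on the opposite strand. The cAMP response element TGACGTCA, found in 1.85% of all windows, had no match in the windows of the 9 genes. A match is a description of the letters, and the absence of one says nothing about binding.

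Across the 10 genes, 3 rose with EHMT1 siRNA, 0 fell, and 7 did not pass the test (edgeR quasi-likelihood test, Benjamini-Hochberg adjusted over all tested genes, threshold 0.05). The 3 were INHBE, a secreted inhibin subunit, ASNS, which makes asparagine and may have been counted over only part of its exons, and CHAC1, which breaks down glutathione. Among all tested genes, 5.81% rose, 6.54% fell and 12.4% changed in either direction. Levels below are in CPM, counts scaled to the size of the library. The median log2 fold change was 0.19 over the 10 genes and 0.00 over all tested genes. At an unadjusted p under 0.05, 6 of the 10 were higher and 0 lower, against 12.4% higher and 13.2% lower (25.6% either way) of all tested genes. Each of the other tools and settings tried also found 0 of the 10 that fell at the adjusted threshold. The genes had been chosen with earlier results of these libraries known, and a share among 10 genes chosen in that way was not tested against the background.

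**Figure D1:**
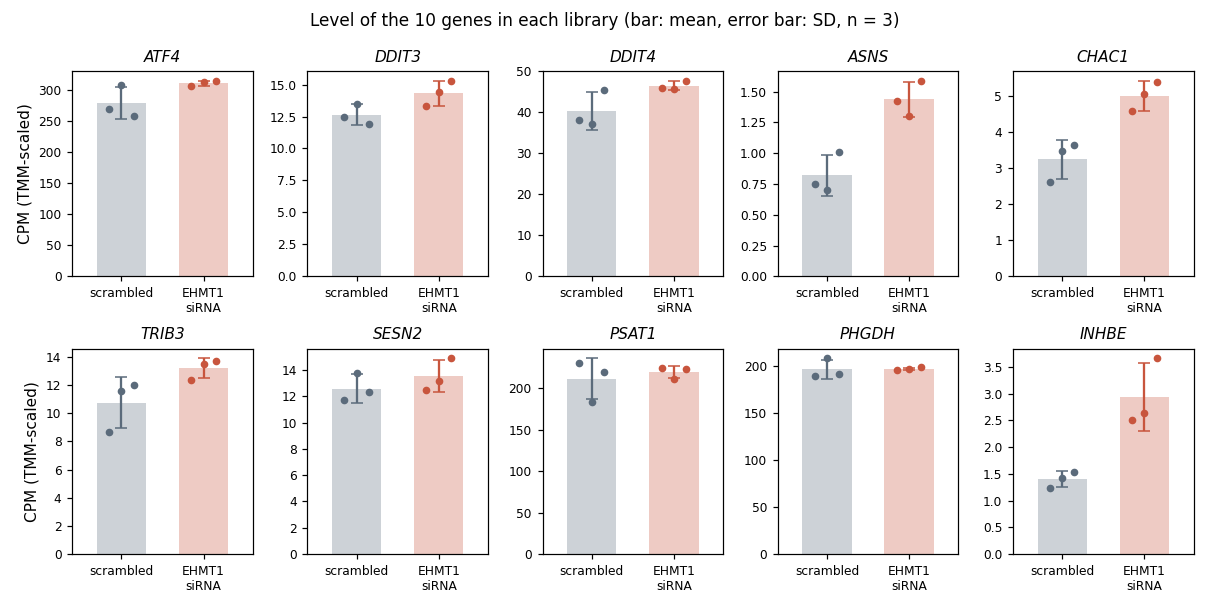
CPM (TMM-scaled, linear axis from 0) of the 10 genes in each library, grey for scrambled and red for EHMT1 siRNA, with bars for the mean and error bars for the SD of 3 libraries. The groups are apart for INHBE, ASNS, CHAC1, DDIT4 and TRIB3, and overlap for the other 5 genes.

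The libraries held 40639655 to 47258481 gene counts. EHMT1, the targeted gene, was at 139 ± 14.7 CPM (SD, n = 3) in scrambled and 55.0 ± 2.26 CPM (SD, n = 3) in EHMT1 siRNA libraries, or 39.6% of the control level. Scrambled replicate 2 stood apart on the first principal component (35.8% of the variance), at -36.4 against -16.0 and -9.16 for the other scrambled libraries. It had the highest mitochondrial share, 5.41% against 4.29% to 4.83%. On the second component (23.9%), scrambled replicates 1, 2 and 3 were at 31.3, -26.6 and 12.7, and the EHMT1 siRNA libraries between -6.78 and -3.92. Pairs of scrambled libraries differed more (chi-square per degree of freedom 8.05 to 18.7) than pairs of EHMT1 siRNA libraries (2.80 to 3.12). Of 11 markers of RD identity, MYOD1, DES and CHRNA1 were present at mean levels of 151, 311 and 638 CPM in scrambled libraries. MYF5 had 0 counts in all 6 libraries, which allows up to 0.0641 to 0.0751 CPM (3 counts, counting error only). MYF6 had a mean of at most 0.0754 CPM in either group. Of the 9 markers tested, 2 rose (22.2%) and 0 fell, against 5.81% and 6.54% of all tested genes. Of their log2 fold changes, 4 were positive and 5 negative. The negative ones were MYH8 at -0.37, MYH3 at -0.26, MYOG at -0.14, PAX3 at -0.11 and DES at -0.06. None of these passed (lowest edgeR adjusted p = 0.0566, for MYH3). CHRNG, a receptor subunit of immature muscle, was at a mean of 8.83 CPM in scrambled and 15.8 CPM in EHMT1 siRNA libraries (log2 fold change 0.83, edgeR adjusted p = 1.32e-05), and PAX7, a factor of muscle stem cells, was at 57.7 and 69.9 CPM (0.28, edgeR adjusted p = 0.0058; not past the threshold without EHMT1 siRNA replicate 3). Both were named after their values were seen, and their part in the results below was not tested. The 11 markers summed to 1159 to 1311 CPM in scrambled and 1301 to 1362 CPM in EHMT1 siRNA libraries. The 13 markers of leukocytes, endothelium, epithelium and hepatocytes summed to 71.7 to 83.2 and 76.7 to 81.6 CPM. KRT18 made up most of that sum, at 67.9 and 69.4 mean CPM. In bulk RNA, fewer cells of a type and less RNA per cell cannot be told apart.

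The transcription factors come first. ATF4 (ENSG00000128272, chromosome 22) was at 270.4, 308.1 and 258.2 CPM in scrambled replicates 1, 2 and 3 and at 306.3, 313.3 and 314.2 CPM in EHMT1 siRNA replicates 1, 2 and 3. Scrambled replicate 2 lay within the EHMT1 siRNA range while the other scrambled libraries lay below it. The means were 278.9 ± 26.0 and 311.2 ± 4.33 CPM (SD, n = 3 each). The log2 fold change of 0.16 (SE 0.0644, 95% interval 0.02 to 0.29) missed the threshold (edgeR adjusted p = 0.125). Without scrambled replicate 2, the library that stood apart, it was 0.23 (SE 0.0461) and passed (edgeR adjusted p = 0.000675). Without scrambled replicate 1 or 3 it was 0.13 or 0.10 (edgeR adjusted p = 0.235 and 0.323), so single control libraries moved it between 0.10 and 0.23. The part of that library's high mitochondrial share in this difference was not tested.

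DDIT3 (ENSG00000175197, chromosome 12), also called CHOP, is a C/EBP family factor that ATF4 induces and that takes part in stress-induced cell death. It was at 12.5, 13.5 and 11.9 CPM in scrambled replicates 1, 2 and 3 and 13.3, 14.4 and 15.3 CPM in the EHMT1 siRNA replicates. The groups overlapped, and the log2 fold change of 0.18 (SE 0.0869, 95% interval 0.00 to 0.37) did not pass (edgeR adjusted p = 0.199). On the opposite strand, exons of the methionyl-tRNA synthetase gene MARS1 cover 27.2% of the DDIT3 exon bases in GENCODE 29, and those of MBD6 cover 4.44%. Unstranded counting leaves reads in shared bases out of both genes. Counted on the second strand column, DDIT3 had 1.30 times as many counts and a log2 fold change of 0.20 (edgeR adjusted p = 0.113), so the call was the same. MARS1 had a log2 fold change of 0.06 and MBD6 of 0.02 (edgeR adjusted p = 0.565 and 0.898).

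TRIB3 (ENSG00000101255, chromosome 20) is a pseudokinase that ATF4 and DDIT3 induce and that holds back ATF4 activity in turn. It was at 8.70, 11.6 and 12.0 CPM in scrambled replicates 1, 2 and 3 and at 12.4, 13.5 and 13.7 CPM in the EHMT1 siRNA replicates. Each EHMT1 siRNA library was above each scrambled library, but 12.0 and 12.4 CPM lay close together, and scrambled replicate 1 was well below its group. The log2 fold change of 0.30 (SE 0.109, 95% interval 0.07 to 0.53) missed the threshold (edgeR adjusted p = 0.0862). It passed without scrambled replicate 2 (0.35, edgeR adjusted p = 0.0237) and with no filter on low counts (0.30, edgeR adjusted p = 0.0300). Without scrambled replicate 1, the low library, it was 0.16 (edgeR adjusted p = 0.284).

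DDIT4 and SESN2 both restrain the growth kinase mTORC1, DDIT4 (REDD1) through the TSC complex and SESN2 as a leucine sensor. DDIT4 (ENSG00000168209, chromosome 10) was at 38.2, 37.2 and 45.5 CPM in scrambled replicates 1, 2 and 3 and at 46.0, 45.6 and 47.7 CPM in the EHMT1 siRNA replicates. The groups did not overlap, but the highest scrambled library, at 45.5 CPM, lay beside the lowest EHMT1 siRNA library, at 45.6 CPM. The log2 fold change was 0.20 (SE 0.0737, 95% interval 0.05 to 0.36) and missed the threshold (edgeR adjusted p = 0.0829). It passed without scrambled replicate 3 (0.30, edgeR adjusted p = 0.0114) and with no filter (0.21, edgeR adjusted p = 0.0472). Without scrambled replicate 1 or 2 it was 0.16 or 0.14 (edgeR adjusted p = 0.198 and 0.132). In GENCODE 29 the antisense gene DDIT4-AS1 covers 41.2% of the DDIT4 exon bases. It is not among the counted identifiers, so no DDIT4 reads were set aside for it. Counted on the second strand column, DDIT4 was at 0.21 (edgeR adjusted p = 0.0641). SESN2 (ENSG00000130766, chromosome 1) was at 11.7, 13.8 and 12.3 CPM in scrambled and 12.5, 13.2 and 14.9 CPM in EHMT1 siRNA replicates 1, 2 and 3. These ranges overlapped, with a log2 fold change of 0.11 (95% interval -0.09 to 0.31, edgeR adjusted p = 0.511) that ran from 0.03 to 0.17 with 1 library left out.

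Of the 3 enzymes of amino acid synthesis, ASNS rose and PHGDH and PSAT1 did not pass the test; the difference between their changes was not tested. PHGDH and PSAT1 carry out the first steps of serine synthesis from a glycolytic intermediate, and both were abundant. PHGDH (ENSG00000092621, chromosome 1) was at 189.6, 208.3 and 191.4 CPM in scrambled and 195.7, 196.6 and 198.7 CPM in EHMT1 siRNA replicates 1, 2 and 3. Its log2 fold change was 0.00 with a 95% interval of -0.11 to 0.12 (edgeR adjusted p = 0.972). PSAT1 (ENSG00000135069, chromosome 9) was at 231.0, 183.9 and 220.0 CPM in scrambled and 224.5, 211.5 and 223.1 CPM in EHMT1 siRNA replicates, with a log2 fold change of 0.05 (95% interval -0.10 to 0.21, edgeR adjusted p = 0.701). Scrambled replicate 2 was the highest of the 6 libraries for PHGDH and the lowest for PSAT1.

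ASNS (ENSG00000070669, chromosome 7) makes asparagine from aspartate and glutamine. It was at 0.748, 0.701 and 1.01 CPM in scrambled and 1.42, 1.30 and 1.59 CPM in EHMT1 siRNA replicates 1, 2 and 3, which corresponds to only 35, 28 and 43 counts against 60, 54 and 65. The groups did not overlap. The log2 fold change was 0.80 (SE 0.238, 95% interval 0.30 to 1.31, edgeR adjusted p = 0.0348). The call was lost by DESeq2 (adjusted p = 0.0697) and when any 1 library other than scrambled replicate 3 was left out (edgeR adjusted p = 0.0569 to 0.162).

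The low ASNS counts have a bearing on what was measured. In GENCODE 29 another gene on the same strand, ENSG00000284707, shares 44.6% of the ASNS exon bases and 96.1% of its coding bases, and this gene is among the identifiers in the files. The counting layout sets reads that fall in exons of both genes aside as ambiguous, on either strand column too. Where the authors' annotation holds these exons as GENCODE 29 does, the ASNS values come mainly from bases outside the coding sequence and are not the level of the whole ASNS message. ENSG00000284707 itself had 14 to 24 counts per library and a log2 fold change of 0.34 (SE 0.364, edgeR adjusted p = 0.611). The change of the full ASNS message could not be measured from these counts.

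CHAC1 (ENSG00000128965, chromosome 15) splits glutathione and is a sensitive target of ATF4. It was at 2.61, 3.48 and 3.63 CPM in scrambled and 4.57, 5.06 and 5.40 CPM in EHMT1 siRNA replicates 1, 2 and 3, from 122 to 221 counts per library. All EHMT1 siRNA libraries were above all scrambled ones. The log2 fold change was 0.63 (SE 0.146, 95% interval 0.32 to 0.94, edgeR adjusted p = 0.00906), a level 1.55-fold higher. Without EHMT1 siRNA replicate 2 or 3 it was 0.62 or 0.58 and just missed the threshold (edgeR adjusted p = 0.0512 and 0.0603).

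INHBE (ENSG00000139269, chromosome 12) encodes the beta E chain of activin, a secreted factor made mainly in liver. It showed the largest log2 fold change of the 10 genes. It was at 1.24, 1.43 and 1.53 CPM in scrambled and 2.51, 2.63 and 3.66 CPM in EHMT1 siRNA replicates 1, 2 and 3, from 57 to 150 counts per library. The lowest EHMT1 siRNA library lay clearly above the highest scrambled one, and EHMT1 siRNA replicate 3 was higher than the others of its group. The log2 fold change was 1.07 (SE 0.194, 95% interval 0.66 to 1.48, edgeR adjusted p = 0.0017), a level 2.10-fold higher. This call held when each of the 6 libraries was left out in turn. On the second strand column INHBE had 1.10 times as many counts and a log2 fold change of 1.06 (edgeR adjusted p = 0.00104). The hepatocyte markers ALB and APOA1 were at mean levels of at most 0.0242 and 0.0723 CPM in either group, at or near the level of 3 counts.

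Near-identical copies can take reads from a gene. By symbol, ATF4, PSAT1 and ASNS have pseudogenes among the identifiers, with at most 266 counts over the 6 libraries (ATF4P3) against 74736 for ATF4. ASNSP1 had 42 counts against 285 for ASNS, a further uncertainty of the ASNS values.

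**Figure D2:**
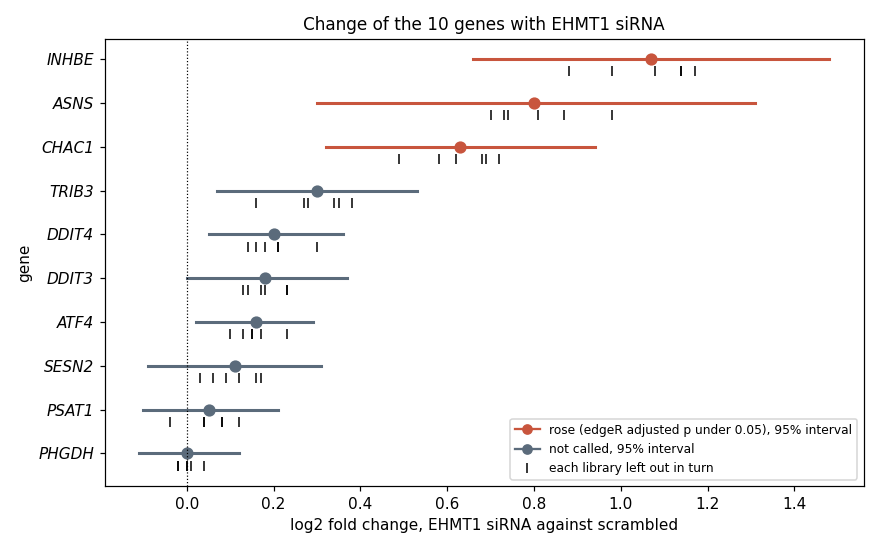
Log2 fold change of each gene with EHMT1 siRNA against scrambled siRNA, with 95% intervals from edgeR, red for the 3 genes that rose and grey for the 7 not called; black ticks show the value with each library left out in turn. INHBE lies at 1.07, ASNS at 0.80 and CHAC1 at 0.63, and the other 7 lie between 0.00 and 0.30.

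Every EHMT1 siRNA library was above every scrambled library for 5 of the 10 genes (INHBE, ASNS, CHAC1, DDIT4 and TRIB3), and below for 0 of them. Among all tested genes this separation occurred upward in 15.4%, downward in 15.5% and either way in 30.9%. Scrambled replicate 1 was the lowest of the 6 libraries for CHAC1, TRIB3, INHBE and SESN2. With 1 library left out, between 1 and 4 of the 10 rose: 1 without EHMT1 siRNA replicate 2 or 3 (INHBE), 2 without EHMT1 siRNA replicate 1 or scrambled replicate 1 (CHAC1 and INHBE), and 4 without scrambled replicate 2 (ATF4, CHAC1, TRIB3 and INHBE) or 3 (DDIT4, ASNS, CHAC1 and INHBE).

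To compare the levels of the 10 genes, CPM was divided by the kilobases of exon in GENCODE 29, joined over all transcripts of a gene. Which transcripts these cells made was not measured. The joined length can exceed that of the message, and the order below depends on it. On this scale ATF4 was highest in scrambled libraries, at 110.9 ± 10.3 CPM per kilobase, and PSAT1 was at 96.7 ± 11.3 (SD, n = 3 each). Their spreads between libraries overlapped, although ATF4 was above PSAT1 within each scrambled library. The difference was not tested. PHGDH at 21.3 ± 1.12 and DDIT4 at 19.6 ± 2.20 also had overlapping spreads on this scale. Their joined exon lengths were 9217 and 2058 bases, and their mean CPM in scrambled libraries 196.4 and 40.3. DDIT3 followed at 9.66 ± 0.625, then SESN2 at 3.65 ± 0.312 and TRIB3 at 3.13 ± 0.523. The spreads of SESN2 and TRIB3 overlapped, although SESN2 was the higher within each scrambled library. CHAC1 was at 1.57 ± 0.268, INHBE at 0.464 ± 0.0489 and ASNS at 0.184 ± 0.0377 CPM per kilobase. The 3 genes that rose were the 3 lowest of the 10 on this scale. For ASNS, counts that may lack its shared bases were divided by the full exon length. The place of the whole ASNS message in this order is not known. Among the 2506 tested genes with an average CPM between those of ASNS and CHAC1, 5.47% rose, and among the 11444 genes above CHAC1, 7.36% rose. The median SE of the log2 fold change was 0.192 in the lower and 0.0704 in the higher range, so small changes are harder to call at the level of ASNS, INHBE and CHAC1.

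**Figure D3:**
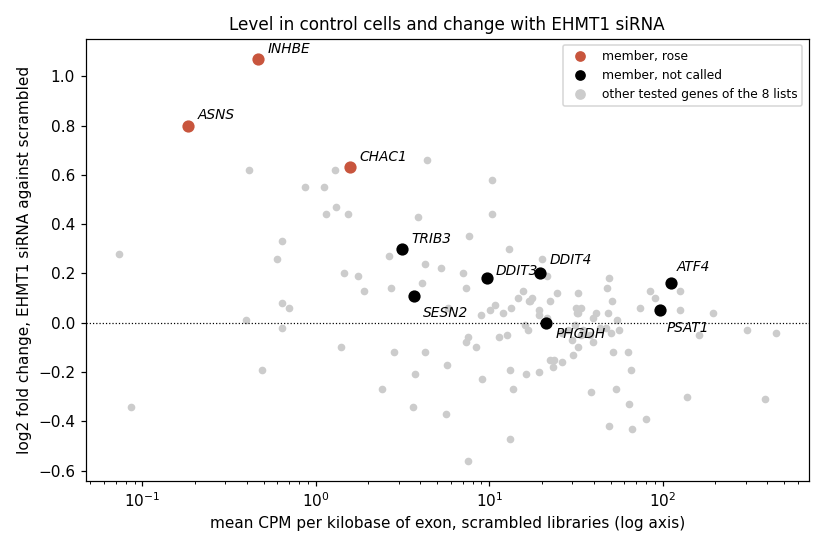
Mean level in the scrambled libraries (CPM per kilobase of exon, log axis) against log2 fold change, with the 10 genes named, red where they rose, and grey points for the other tested genes of the 8 lists. The genes that rose, ASNS, INHBE and CHAC1, lie at the left, below 2 CPM per kilobase, and ATF4 and PSAT1 at the right near 100 CPM per kilobase. The place of ASNS rests on counts that may lack its shared bases.

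The wider pathway was described with 6 further lists of 101 genes that are not among the 10, of which 98 were tested. In these lists 12 genes rose and 14 fell, and the median log2 fold change was 0.02. The risen and fallen genes were 12.2% and 14.3% of those tested, against 5.81% and 6.54% of all tested genes. No list was tested against these shares, which apply to each list below as well. Leaving out scrambled replicate 1 gave 7 risen genes, and leaving out EHMT1 siRNA replicate 1, 2 or 3 gave 7, 6 or 5. The fallen genes then numbered 7, 6 or 8 without EHMT1 siRNA replicate 1, 2 or 3, and without scrambled replicate 2, which stood apart, 17 rose and 20 fell.

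Upstream of ATF4, in the eIF2 phosphorylation machinery, 0 of 16 rose and 2 fell. EIF2AK3 (PERK), the kinase that senses unfolded protein in the endoplasmic reticulum, was at 30.6 ± 3.76 CPM in scrambled and 23.7 ± 0.572 CPM in EHMT1 siRNA libraries (SD, n = 3 each). It fell by 0.37 on the log2 scale (SE 0.0829, edgeR adjusted p = 0.00736), but not past the threshold when EHMT1 siRNA replicate 2 was left out. EIF2S3, the gamma subunit of eIF2, had mean levels of 222 and 177 CPM and fell by 0.33 on the log2 scale (edgeR adjusted p = 0.000861). The kinase gene EIF2AK1 (HRI) at -0.13 and OMA1, the mitochondrial protease that signals to it, at 0.27 did not pass (edgeR adjusted p = 0.119 and 0.0511). Among partner and response transcription factors, 1 of 8 tested rose and 0 fell. ATF3, a stress-induced repressor downstream of ATF4, rose by 0.24 on the log2 scale (edgeR adjusted p = 0.0342), which no longer passed when scrambled replicate 3 or any single EHMT1 siRNA library was dropped. BATF2 at 0.62, JDP2 at 0.33 and NFE2L2 at 0.09 did not pass (edgeR adjusted p = 0.0605, 0.159 and 0.388).

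Transporters and synthetases serve the uptake and use of amino acids. Of 14 amino acid transporters, 0 rose and 3 fell. SLC7A1, which carries arginine and lysine, was at 57.5 ± 0.513 CPM in scrambled and 38.9 ± 0.926 CPM in EHMT1 siRNA libraries (SD, n = 3 each). It fell by 0.56 on the log2 scale (SE 0.0581, edgeR adjusted p = 1.15e-05). The lysosomal carrier SLC36A1 changed by -0.34 (edgeR adjusted p = 0.00415) and the leucine carrier SLC7A5 by -0.18 (edgeR adjusted p = 0.0411). The SLC7A5 call was lost once any single EHMT1 siRNA library was dropped, with upper-quartile factors in place of TMM, or with no filter on low counts. SLC7A6 at -0.21 did not pass (edgeR adjusted p = 0.0580). Of 20 cytosolic aminoacyl-tRNA synthetases, which load tRNAs with amino acids, 2 rose and 2 fell. KARS1, for lysine, fell by 0.42 on the log2 scale (edgeR adjusted p = 9.29e-05). IARS1, for isoleucine, at -0.19, CARS1, for cysteine, at 0.22 and AARS1, for alanine, at 0.18 passed narrowly (edgeR adjusted p = 0.0451, 0.0264 and 0.0461). None of these 3 passed once any single library other than scrambled replicate 2 was dropped. The IARS1 call was also lost with upper-quartile factors.

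Of 17 enzymes of amino acid and one-carbon synthesis, 1 rose and 4 fell. TYMS, which makes thymidylate with a folate one-carbon unit and is a gene of dividing cells, fell by 0.47 on the log2 scale (edgeR adjusted p = 0.000711). MTHFD1 at -0.23 and MTHFD1L at -0.21, enzymes of folate metabolism, also fell (edgeR adjusted p = 0.0215 and 0.0182), as did SHMT1 at -0.27 (named after its value was seen; edgeR adjusted p = 0.0329). None of MTHFD1, MTHFD1L and SHMT1 passed once any single EHMT1 siRNA library was dropped, nor did MTHFD1 and SHMT1 without scrambled replicate 1. PCK2, the mitochondrial form of phosphoenolpyruvate carboxykinase, rose by 0.44 (edgeR adjusted p = 0.0309), a call lost without scrambled replicate 1 or 3 or EHMT1 siRNA replicate 2 or 3.

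The last list holds other genes described as ATF4 targets. Of 23 tested, 8 rose (34.8%) and 3 fell (13.0%), against 5.81% and 6.54% of all tested genes. The median log2 fold change was 0.13. NDRG1, which hypoxia also induces, was at 43.1 ± 4.93 CPM in scrambled and 67.9 ± 1.17 CPM in EHMT1 siRNA libraries (SD, n = 3 each). It rose by 0.66 on the log2 scale (SE 0.0725, edgeR adjusted p = 2.08e-05). HMOX1, a heme-degrading enzyme better known as a target of NRF2, rose by 0.58 and CREBRF, a regulator of the unfolded protein response, by 0.55 (edgeR adjusted p = 2.63e-05 and 0.000637). PMAIP1 (NOXA), a gene of apoptosis, fell by 0.43 (edgeR adjusted p = 0.000304). EIF4EBP1 at -0.30 and LONP1 at -0.28, named after their values were seen, also fell (edgeR adjusted p = 0.00878 and 0.0108). The EIF4EBP1 call was lost without EHMT1 siRNA replicate 1 or 2. LONP1 was not called once any single EHMT1 siRNA library was dropped. Many genes of this list answer to other factors as well. ADM2 and GDF15, which like INHBE encode secreted factors, are named after their values were seen. ADM2 was at 5.53 ± 1.00 CPM in scrambled and 8.48 ± 0.583 CPM in EHMT1 siRNA libraries, and GDF15 at 8.12 ± 1.49 and 10.9 ± 0.997 CPM (SD, n = 3 each). They rose by 0.62 and 0.43 on the log2 scale (edgeR adjusted p = 0.00355 and 0.0277), the call of GDF15 being lost without scrambled replicate 1 or EHMT1 siRNA replicate 2 or 3. Without EHMT1 siRNA replicate 3, 5 of the list rose; fallen genes numbered 1 without EHMT1 siRNA replicate 1 or 2 and 2 without replicate 3.

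**Figure D4:**
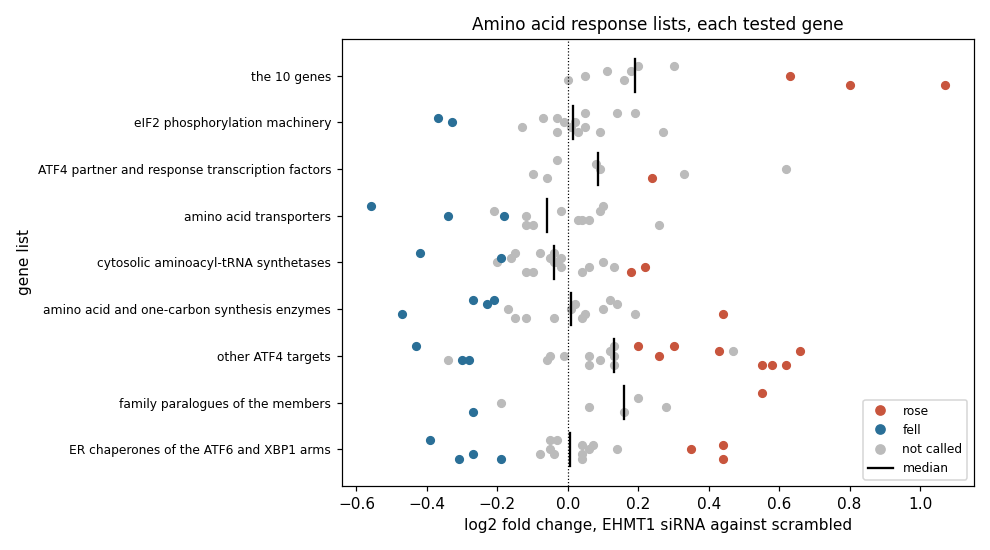
Log2 fold change of each tested gene with EHMT1 siRNA against scrambled siRNA, 1 row per list, red where it rose, blue where it fell and grey where it was not called, with the median as a black line. The medians of the 10 genes (0.19) and of the other ATF4 targets (0.13) lie to the right of 0, and those of amino acid transporters (-0.06) and aminoacyl-tRNA synthetases (-0.04) to its left.

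Paralogues of the 10 genes, related by family and mostly not known as ATF4 targets, were compared beside them. Of 7 tested, 1 rose and 1 fell (14.3% each), against 5.81% and 6.54% of all tested genes. SESN3, a sestrin, was at 11.7 ± 1.69 CPM in scrambled and 17.1 ± 1.54 CPM in EHMT1 siRNA libraries (SD, n = 3 each). It rose by 0.55 on the log2 scale (edgeR adjusted p = 0.00232), while SESN2 was at 0.11 and SESN1 at 0.20 (edgeR adjusted p = 0.511 and 0.245). CHAC2, a glutathione-splitting enzyme like CHAC1, fell by 0.27 on the log2 scale (edgeR adjusted p = 0.0329), but not past the threshold once scrambled replicate 1 or any single EHMT1 siRNA library was dropped. TRIB1 at 0.16 did not pass (edgeR adjusted p = 0.236). The difference between the changes of paralogues was not tested.

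The genes whose pattern over the 6 libraries was most like the mean of the 10 genes, each scaled to equal spread, were WDR13 (Pearson r = 0.997), MOGS, HRH1, PCED1A and EPHA2 (r = 0.995 each). The search ran over 11567 protein-coding genes, of which 503 reached an r of 0.9, and the points share the same libraries and depth, so the order of these genes is a description. Of the 5, PCED1A rose (log2 fold change 0.30, edgeR adjusted p = 0.0158), a call lost without scrambled replicate 1 or EHMT1 siRNA replicate 2 or 3, and WDR13, MOGS, HRH1 and EPHA2, at 0.17, 0.15, 0.30 and 0.15, did not pass.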

How the data were processed

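The deposited values were raw read counts per gene, not normalized, 1 file per library in the layout of STAR's gene counts. Per the submitters' processing notes, CASAVA, bcl2fastq, STAR 2.5, HTSeq 0.6.1, DESeq2 and build hg19 were used; the annotation is not given in the sources used here, and GENCODE 29 (GRCh38) holds 58352 of the identifiers. Rows naming no gene (20.0% to 21.2% of reads) stayed out. The unstranded column was used; the second strand column held 87.1% to 89.0% of strand counts and was an alternative. In R 4.3.3, edgeR 4.0.16 was used with filterByExpr (minimum count 10), TMM, a robust quasi-likelihood fit on group and Benjamini-Hochberg adjustment, tested on simulated data. The SE is the absolute log2 fold change over the root of F. CPM floors at 3 counts and intervals cover counting or replicate error as stated.

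The members and lists were chosen with earlier results of these data known. Named genes were the 10 members, EHMT1, up to 4 tested genes per list with the smallest adjusted p, genes overlapping a member, and the 5 of most similar pattern. Within each group, any pair of libraries differed beyond sampling noise (chi-square per degree of freedom 2.80 to 18.7), so none was merged. Alternatives were RLE and upper-quartile factors, DESeq2 1.42.0, no filter, a floor of 1 CPM in at least 3 libraries, limma-voom (limma 3.58.1), a replicate block, either strand column and leaving out each library.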

Additional observations from a re-analysis of the deposited data

How the results depend on the processing

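The count of risen genes among the 10 stayed at 3 under RLE and upper-quartile factors, the filter of at least 1 CPM in 3 libraries, limma-voom and the second strand column, and was 2 by DESeq2. With no filter it was 5 (DDIT4 and TRIB3 added). The first strand column, which holds few of the reads, gave 0 of the 10, 1 risen and 1 fallen gene of the 6 pathway lists, and 90 risen and 87 fallen of all genes, against 1084 and 1220. With 1 library left out, 1 to 4 of the 10 rose, 5 to 17 pathway genes rose and 6 to 20 fell, and 452 to 1625 of all genes rose and 484 to 1923 fell. None of the 10 fell under any of these settings. PSAT1 and PHGDH, whose changes were near 0, turned in sign: PSAT1 was at -0.05 in the first strand column, and with 1 library left out PSAT1 ran from -0.04 (without scrambled replicate 2) to 0.12 and PHGDH from -0.02 (without scrambled replicate 1 or 3) to 0.04. The replicate numbers were not shown to pair the libraries: same-numbered libraries' deviations correlated at 0.287, 0.106 and 0.0777, and scrambled replicate 2 correlated best with EHMT1 siRNA replicate 3. With the replicate block, 5 of the 10 rose (DDIT4 and TRIB3 added, edgeR adjusted p = 0.0228 and 0.0191), against 3 without it, and 1474 of all genes rose and 1632 fell. Depth limits ASNS most, at 28 to 65 counts per library. Strand-specific counts do not recover its bases shared with the same-strand gene.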

Other observations

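Genes of the ATF6 arm and of the XBP1 arm of the unfolded protein response, which run beside that of ATF4, moved in both directions. Of the 18 genes listed for both arms together, 3 rose (16.7%) and 4 fell (22.2%), against 5.81% and 6.54% of all tested genes. The median log2 fold change was 0.00. Among chaperones, HSPA5 (BiP), the main chaperone of the endoplasmic reticulum, fell by 0.31 on the log2 scale and PDIA6, a disulfide isomerase, fell by 0.39 (edgeR adjusted p = 0.00153 and 0.000275). ERN1 (IRE1), the sensor that splices XBP1, and DNAJB9, a co-chaperone that the spliced factor induces, rose by 0.44 each (edgeR adjusted p = 0.00497 and 0.00604); ERN1 did not pass without EHMT1 siRNA replicate 2. Both of the factors that name the arms are given after their values were seen. ATF6 fell by 0.19 on the log2 scale (edgeR adjusted p = 0.0301), but not past the threshold with no filter on low counts, or without scrambled replicate 1 or any single EHMT1 siRNA library. XBP1, at 0.06, did not pass (edgeR adjusted p = 0.577). Without EHMT1 siRNA replicate 2, 1 of the list rose and 2 fell, and without EHMT1 siRNA replicate 1 or 3, 2 fell.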
